A study of Mus musculus with 4 samples.

Results

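Collagen genes were described in primary mouse cortical neuron cultures of wild-type mice and of mice whose neurons were made to lose Brg1, the motor subunit of the BAF complex, which moves nucleosomes; its gene is Smarca4. The members were chosen by symbol: every row of the deposited table named Col, a number, a and a number was taken, which gave 43 of 22552 genes. Of these, 39 reached 0.1 FPKM (fragments per kilobase of transcript, scaled to sequencing depth) in at least 1 library, and 24 reached 1 FPKM. The 4 groups, with 1 library each, were wild type at basal KCl, wild type after 50 mM KCl for 6 h, knockout (cKO) at basal KCl and cKO after 50 mM KCl for 6 h. The cKO genotype was given as BAF53bCre Brg1F/F, in which floxed Brg1 is cut by a recombinase driven by a neuronal BAF subunit gene, so cells of other types in the dish are not its intended target. The cultures shared their source, cortex of E16.5 embryos grown in neurobasal medium with B27 supplement on polyornithine and fibronectin, and fibronectin is itself a collagen-binding matrix protein. For depolarization, cultures had been given TTX (1 µM) and APV (100 µM) on day 5 in vitro, to silence sodium channels and NMDA receptors, before KCl was added on day 6. The treatment text is the same for all 4 samples and names both blockers for depolarization, without saying whether the basal cultures also received them. The labels also leave unsaid how many embryos went into a library and which sex they were.

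Collagens are extracellular matrix proteins in which 3 chains wind into a triple helix. Fibrillar collagens (types I, II, III, V, XI, XXIV and XXVII) build the fibres of connective tissue, type IV chains build the sheet of basement membranes, and the remaining classes coat fibres, form beaded filaments or span the cell membrane. In the brain most fibrillar and type IV collagen is made by the meninges and by cells of blood vessels, type III collagen is a ligand of the receptor GPR56 (Adgrg1) in the developing cortex, and a few collagens, among them types XIX and XXV, are made by neurons.

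All 4 libraries were first checked. The values summed to between 302041 and 330621 FPKM per library, and the approximated depth was 2.13e+07 to 2.35e+07 fragments, at which 1 FPKM on a 5000-base transcript is about 106 to 117 fragments. Smarca4, basal then KCl, stood at 34.0 and 28.5 FPKM in wild type, against 10.5 and 10.4 in the cKO. The activity gene Fos stood at 2.40 FPKM (wild type) and 3.69 (cKO) without added KCl, and at 203 and 224 with it; all 5 activity genes listed, which also held Fosb, Npas4, Nr4a1 and Bdnf, were at least 2-fold higher with KCl in both genotypes. Neuronal markers were present throughout, with Stmn2 between 976 and 1166 FPKM. Xist, expressed from the inactive X, was 83.3 and 78.1 FPKM in wild type but 0.141 and 0.287 in the cKO. The Y-linked genes went the other way, Eif2s3y with 0.0518 and 0 against 32.9 and 39.0, and Ddx3y with 0.0355 and 0.0450 against 21.7 and 60.7, so sex and genotype cannot be told apart in any genotype comparison here. With 1 library per group no difference could be tested, and higher and lower describe these libraries alone. Ratios of single genes carry a 95% interval (exact binomial on approximated fragments) that covers counting error only.

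RefSeq windows of the 250 bases before the gene start (GRCm38.p6, a different build from the mm9 the submitters name) were found for 31 of the 39 collagen genes, in 34 windows. Shown are 4 of them that overlap no annotated exon, chosen after their values were seen: Col3a1, Col8a1 and Col10a1, which differed strongly between these libraries, and Col11a1, which differed with KCl but little with genotype. Capitals mark 3 motifs on either strand: the TATA element TATAAA, the CAAT element, which reads CCAAT, and the GC element bound by Sp1, which reads GGGCGG.
Col3a1, chr1:45311288-45311537, plus strand: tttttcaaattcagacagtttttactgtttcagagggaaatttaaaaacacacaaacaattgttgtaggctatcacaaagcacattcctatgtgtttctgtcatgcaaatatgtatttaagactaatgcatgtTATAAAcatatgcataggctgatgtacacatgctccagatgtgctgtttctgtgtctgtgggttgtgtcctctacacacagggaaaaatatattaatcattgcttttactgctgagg
Col10a1, chr10:34389731-34389980, plus strand: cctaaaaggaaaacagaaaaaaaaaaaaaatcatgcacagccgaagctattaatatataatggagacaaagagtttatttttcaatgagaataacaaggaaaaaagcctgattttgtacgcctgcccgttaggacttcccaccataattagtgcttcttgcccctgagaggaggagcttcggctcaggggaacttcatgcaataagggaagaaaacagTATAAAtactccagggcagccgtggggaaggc
Col8a1, chr16:57754738-57754987, minus strand: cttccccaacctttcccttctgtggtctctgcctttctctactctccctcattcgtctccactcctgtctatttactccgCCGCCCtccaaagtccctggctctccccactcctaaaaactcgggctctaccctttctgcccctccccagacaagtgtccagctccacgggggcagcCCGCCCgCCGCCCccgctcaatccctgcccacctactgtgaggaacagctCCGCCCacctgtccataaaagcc
Col11a1, chr3:114030290-114030539, plus strand: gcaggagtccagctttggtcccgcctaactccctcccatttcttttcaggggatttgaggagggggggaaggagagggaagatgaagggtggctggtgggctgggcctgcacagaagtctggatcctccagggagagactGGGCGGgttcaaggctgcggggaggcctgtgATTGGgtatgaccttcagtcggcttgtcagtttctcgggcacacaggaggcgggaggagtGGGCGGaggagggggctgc

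The TATAAA of Col10a1 began at base -32 from the start and that of Col3a1 at base -117. The G and C content of these stretches was 35.2% for Col3a1 and 41.6% for Col10a1, against 60.8% for Col8a1 and 62.4% for Col11a1. Over the 34 collagen windows, TATAAA was found in 4 (11.8%), CCAAT in 11 (32.4%) and GGGCGG in 20 (58.8%), beside 12.4%, 33.8% and 32.7% of all 32851 windows. TGANTCA, the AP-1 site bound by Fos and Jun proteins, was found in 1 window, that of Col6a1 (2.94%, against 6.75% of all windows), and TGACGTCA, the CREB site, in none (1.55% of all windows). Both strands were searched for each motif, and none of these 5 motifs contains another. A match describes letters in this window, not binding. Some windows reach into annotated exons of the same or another gene. Col4a1 and Col4a2 run in opposite directions on chromosome 8 from RefSeq starts that were 21 bases apart. They overlap at these starts, with 22 exon bases shared, and the window of each reaches into an exon of the other. The starts of Col4a5 and Col4a6, head to head on chromosome X, were 1343 bases apart.

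Summed over the 43 genes, collagen values came to 65.3 FPKM without KCl and 124 with KCl in wild type, and to 137 and 328 in the cKO. The sum was 1.91-fold higher with KCl in wild type and 2.40-fold higher with KCl in the cKO, and the cKO sum was 2.10-fold the wild-type sum at basal KCl and 2.64-fold after KCl. Col4a1, Col4a2, Col3a1 and Col1a1 made up 44.4% of the collagen sum in wild type at basal KCl, 44.8% in wild type after KCl, 62.4% in the cKO at basal KCl and 63.4% in the cKO after KCl. In bulk RNA more cells of a type and more RNA per cell cannot be told apart. The 24 genes at 1 FPKM or more are described by the order of their libraries; Col6a1, Col6a2, Col7a1, Col10a1 and Col27a1 reached 1 FPKM in the cKO KCl library alone, so that their highest library is fixed by that minimum, and the numbers of genes per order, like counts and medians over the 24, are descriptions. In 11 genes both cKO libraries stood above both wild-type libraries, with KCl above basal within each genotype: Col1a1, Col1a2, Col3a1, Col4a1, Col4a2, Col5a1, Col6a1, Col6a2, Col6a3, Col7a1 and Col18a1. In 6 genes both KCl libraries stood above both basal libraries, with cKO above wild type at each KCl level: Col5a2, Col8a1, Col10a1, Col11a1, Col12a1 and Col27a1. Both KCl libraries stood below both basal libraries for Col19a1 and Col16a1, and both cKO libraries below both wild-type libraries for Col9a1, Col9a3 and Col11a2. These orders were not counted over all genes, so how common each is outside the collagens is not known here.

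**Figure D1:**
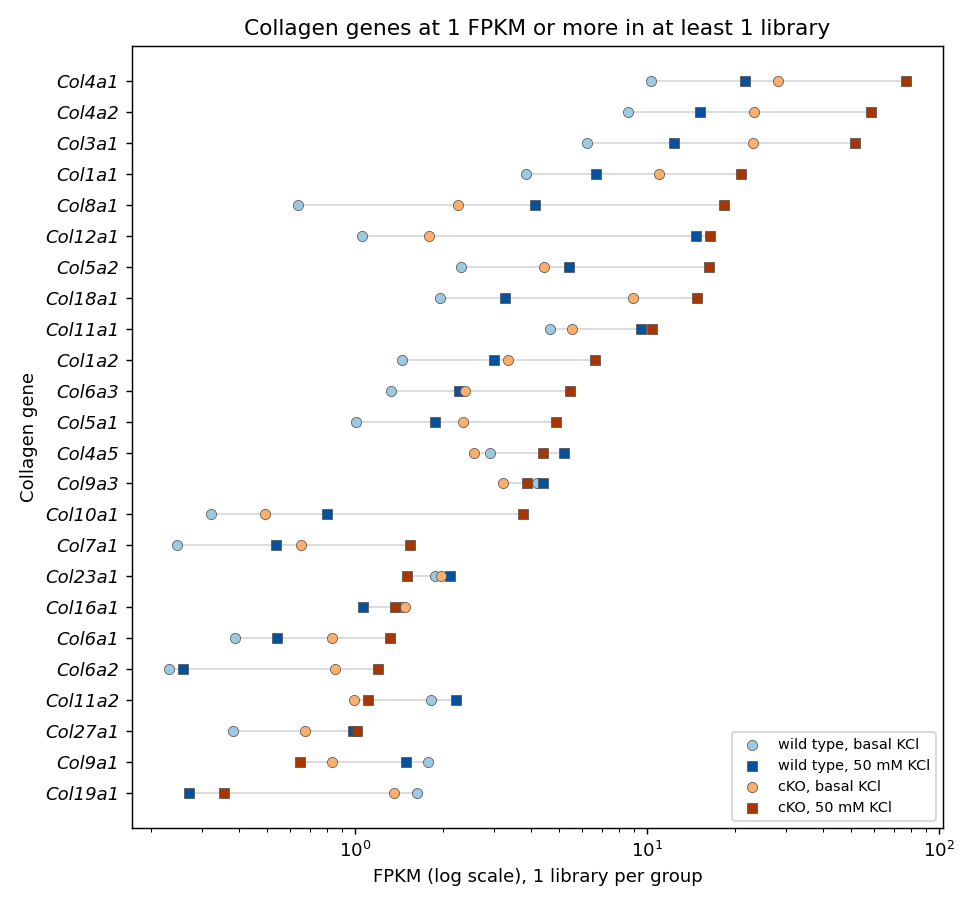
Level of each of the 24 collagen genes that reached 1 FPKM in at least 1 library, on a log axis of FPKM, with 1 point per library (circles basal KCl, squares 50 mM KCl, blue wild type, orange cKO) and genes ordered by the cKO KCl library. Col4a1 is at the top, from 10.3 to 77.3 FPKM, and Col19a1 at the bottom, with both KCl libraries at the left.

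The fibrillar chains of types I and III form the fibres of skin, tendon and vessel walls. Col3a1, the single chain of type III collagen, stood at 6.25 FPKM in wild type at basal KCl, 12.3 in wild type after KCl, 23.1 in the cKO at basal KCl and 51.7 in the cKO after KCl. Among all genes of a library it ranked 8495 from the top in wild type basal and 1393 in cKO KCl. Col1a1, the major chain of type I collagen, stood at 3.85, 6.71, 11.0 and 20.9 FPKM in the same order of libraries (both wild-type libraries, then both cKO libraries, each basal before KCl), which is used from here on. Col1a2, its partner chain, stood at 1.45, 2.98, 3.34 and 6.66. All 3 were lowest in wild type basal and highest in cKO KCl, and the wild-type KCl library stayed below the cKO basal one. Type I collagen holds 2 chains from Col1a1 for each from Col1a2 in its usual form, and the ratio of Col1a1 to Col1a2 FPKM was 2.66, 2.25, 3.29 and 3.14, higher in both cKO libraries than in both wild-type ones. The ratio of Col3a1 to Col1a1 went from 1.63 in wild type basal to 2.47 in cKO KCl.

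Types V and XI collagen are minor fibrillar chains that start fibres and limit their width. Col5a1 stood at 1.01, 1.88, 2.35 and 4.86 FPKM and Col5a2 at 2.31, 5.39, 4.43 and 16.3. Col5a2 was thus the chain with the larger spread, and its ratio to Col5a1 was 1.89 in cKO basal and 3.36 in cKO KCl. Col11a1 stood at 4.66, 9.53, 5.52 and 10.4, and Col11a2, whose product pairs with it in cartilage, at 1.81, 2.21, 0.994 and 1.10. The genes of this pair did not follow each other: Col11a1 separated the libraries by KCl and Col11a2 by genotype, in the direction opposite to Col3a1, so that their ratio ran from 2.57 in wild type basal to 9.42 in cKO KCl. Col27a1, a fibrillar chain best known from cartilage, stood at 0.382, 0.987, 0.676 and 1.01. The remaining fibrillar chains were low, with Col2a1 between 0.603 and 0.787, Col5a3 between 0.0936 and 0.623, and Col24a1 under 0.1 FPKM in every library.

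Type IV chains assemble as a network under endothelium and around pericytes and muscle. Col4a1, the most abundant collagen in every library, stood at 10.3, 21.6, 28.1 and 77.3 FPKM, and Col4a2 at 8.57, 15.1, 23.3 and 58.4. They kept close proportions, with a ratio between 1.20 and 1.43, while each varied over several-fold. The X-linked chain Col4a5 stood at 2.90, 5.18, 2.56 and 4.38, so that it separated basal from KCl libraries and was slightly lower in the cKO in each. Its head-to-head neighbour Col4a6 stood at 0.695, 0.898, 0.650 and 0.728, and Col4a4 between 0.243 and 0.311. Col4a3 reached 0.160 FPKM in wild type KCl and 0.0438 or less elsewhere.

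Of the short-chain network collagens, Col8a1, a chain of vessel walls and of the cornea's basal layer, stood at 0.636, 4.13, 2.25 and 18.4 FPKM, and its partner Col8a2 at 0.0750, 0.0869, 0.191 and 0.365. Col10a1, known as a marker of hypertrophic cartilage, stood at 0.321, 0.800, 0.491 and 3.76, with the cKO KCl library far above the other 3. Col10a1 lies in the opposite direction within the gene Nt5dc1, which stood at 0.955, 1.47, 1.10 and 1.53 FPKM, and whether counting used the strand is not stated. Type VI chains, which form beaded filaments around cells, were lower: Col6a3 stood at 1.33, 2.28, 2.38 and 5.43, Col6a1 at 0.389, 0.541, 0.836 and 1.31, and Col6a2 at 0.230, 0.258, 0.856 and 1.20. Col6a1 and Col6a2 were near a ratio of 1 in the cKO libraries (0.976 and 1.10) and at 1.69 and 2.09 in wild type. Col7a1, the anchoring fibril chain, stood at 0.246, 0.537, 0.653 and 1.54.

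Fibril-associated collagens (FACIT), which sit on the surface of fibres, held the members that differed most from the rest. Col12a1, found in tendon and at sites of tension, stood at 1.05, 14.7, 1.80 and 16.4 FPKM: both KCl libraries were high and both basal libraries low. Col16a1 stood at 1.45, 1.06, 1.49 and 1.37. Col9a1 stood at 1.78, 1.50, 0.831 and 0.649 and Col9a3 at 4.20, 4.41, 3.21 and 3.89, and Col9a2, the remaining chain of type IX collagen, at 0.700, 0.560, 0.406 and 0.321, so that all 3 type IX chains were lower in both cKO libraries than in both wild-type ones. Col20a1 had the same order at a low level, 0.362 and 0.435 in wild type and 0.151 and 0.208 in cKO. Col19a1, which some cortical interneurons make, stood at 1.63, 0.269, 1.36 and 0.357. Of the transmembrane collagens, Col23a1 stood at 1.87, 2.12, 1.97 and 1.50, and Col25a1, a neuronal collagen, at 0.557, 0.177, 0.560 and 0.200. The multiplexin Col18a1, the source of the fragment endostatin and a part of vessel basement membranes, stood at 1.96, 3.25, 8.92 and 14.8, whereas Col15a1 of the same class stood at 0.531, 0.272, 0.488 and 0.307.

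Another 15 genes lay between 0.108 FPKM (Col28a1, just inside the minimum) and 0.898 (Col4a6) in their highest library. The remaining ones not yet named were Col22a1 (0.289 to 0.430), Col14a1 (0.0641 to 0.142), Col13a1 (0 in wild type KCl, 0.159 in cKO basal) and Col6a5 (0.0360 to 0.182). Below the minimum were 4 genes, Col6a4 (0.0556 in its highest library), Col17a1, Col24a1 and Col6a6.

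The genotypes were first compared without added KCl, to see which collagens differed before depolarization. After 1 FPKM was added to both values, 5 of 39 genes were at least 2-fold higher in the cKO and none was lower. Over all 16320 genes at the same minimum, 0.76% were at least 2-fold higher and 0.447% lower. Since a gene under 1 FPKM cannot reach 2-fold on this scale, the same count was 5 of 24 at 1 FPKM or more, beside 0.936% of all such genes. The median log2 ratio was 0.14 for the 39 genes and 0.43 for the 24, and 0.00 and 0.01 over all genes. The 5 genes were Col18a1, 4.55-fold higher (interval 3.96 to 5.28), Col3a1, 3.70-fold (3.41 to 4.02), Col1a1, 2.86-fold (2.58 to 3.18), Col4a1, 2.73-fold (2.57 to 2.90), and Col4a2, 2.72-fold (2.54 to 2.91). Col8a1 lay just under the size, at a log2 ratio of 0.99, although its deposited values differed 3.53-fold (2.71 to 4.70). Col6a2, low in wild type, differed 3.72-fold (2.31 to 6.12) at a log2 ratio of 0.59. Among the 24 genes the lowest ratios were those of Col9a1, 2.14-fold lower in the cKO (1.59 to 2.87), and Col11a2 1.83-fold lower (1.47 to 2.29). Of 37 genes with more than 3 fragments in both libraries, the counting interval lay above 1 in 17, below 1 in 5 and included 1 in 15. Such intervals were not counted over all genes, so these numbers have no share to be set beside.

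After KCl, 9 of 39 genes were at least 2-fold higher in the cKO and none was lower, beside 1.52% and 0.766% of all genes. Among genes at 1 FPKM or more these were 9 of 24, beside 1.87%. The median log2 ratio was 0.11 for the 39 and 0.76 for the 24, and 0.02 and 0.03 over all genes. The 9 held the 5 genes named at basal KCl, with Col18a1 at 4.55-fold (4.08 to 5.08), Col3a1 at 4.19-fold (3.96 to 4.43), Col4a2 at 3.86-fold (3.68 to 4.05), Col4a1 at 3.58-fold (3.44 to 3.73) and Col1a1 at 3.12-fold (2.89 to 3.37). The other 4 were Col10a1, 4.70-fold higher (3.47 to 6.36), Col8a1, 4.45-fold (4.01 to 4.93), Col5a2, 3.03-fold (2.80 to 3.29), and Col5a1, 2.58-fold (2.28 to 2.93). Col12a1 and Col11a1, both high after KCl, differed little between genotypes there, by 1.12-fold (1.07 to 1.17) and 1.09-fold (1.02 to 1.17). Among the 24 genes the lowest ratios were again those of Col9a1, 2.31-fold lower (1.69 to 3.23), and Col11a2, 2.01-fold lower (1.64 to 2.45). For the X-linked Col4a5 the cKO value was 1.13-fold below wild type without KCl (0.981 to 1.31) and 1.18-fold below it with KCl (1.06 to 1.31). Col5a1 no longer passed after rescaling to ribosomal protein genes (log2 ratio 0.90). The basal and KCl genotype comparisons share no library; all 5 genes past 2-fold at basal KCl were past it after KCl, beside 79 of 124 over all genes.

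**Figure D2:**
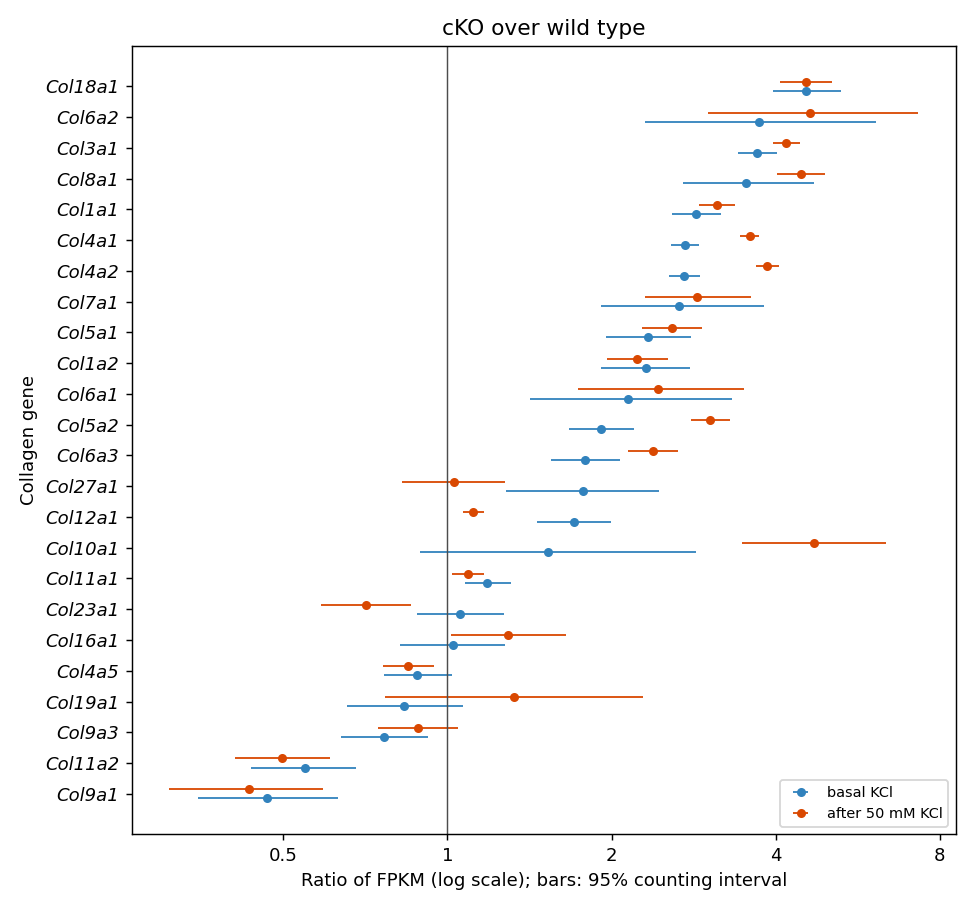
Ratio of cKO to wild-type FPKM for the 24 collagen genes at 1 FPKM or more, on a log axis, at basal KCl (blue) and after 50 mM KCl (orange), with 95% counting intervals as bars and genes ordered by the basal ratio. Col18a1 is at 4.55 in both conditions, Col10a1 moves from 1.53 to 4.70, and Col9a1 and Col11a2 lie left of 1 in both.

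Next came the response of the collagen genes to 6 h of depolarization, first in wild type. At least 2-fold higher were 3 of 39 genes, and 1 was lower, beside 4.12% and 2.69% of all genes. Among genes at 1 FPKM or more the higher ones were 3 of 24, beside 5.07%. The median log2 ratio was 0.15 for the 39 and 0.52 for the 24, beside 0.01 and -0.01 over all genes. Col12a1 was 13.9-fold higher with KCl (12.3 to 15.9), Col8a1 6.50-fold (5.05 to 8.52) and Col4a1 2.10-fold (1.97 to 2.23). Col4a1 passed the size only narrowly, with a log2 ratio of 1.00, and did not pass after rescaling to the upper quartile (0.95) or to ribosomal protein genes (0.66). Col3a1 was 1.97-fold higher (1.81 to 2.16), at a log2 ratio of 0.88 and so within the size. Col19a1 was 6.06-fold lower (3.88 to 9.50). Col25a1, which lies under 1 FPKM and could not be counted, was 3.15-fold lower (2.01 to 5.20).

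In the cKO, 7 of 39 genes were at least 2-fold higher with KCl and none was lower, beside 3.58% and 2.51% of all genes. These were 7 of 24 at 1 FPKM or more, beside 4.41%. The median log2 ratio was 0.22 for the 39 and 0.74 for the 24, and 0.02 and 0.01 over all genes. Col12a1 was 9.11-fold higher (8.27 to 10.1), Col8a1 8.17-fold (7.16 to 9.34), Col10a1 7.66-fold (5.28 to 11.1), Col5a2 3.69-fold (3.38 to 4.03), Col4a1 2.76-fold (2.66 to 2.86), Col4a2 2.50-fold (2.40 to 2.61) and Col3a1 2.23-fold (2.14 to 2.33). With rescaling to ribosomal protein genes 4 of the 39 collagens were at least 2-fold higher, beside 293 of all genes. With rescaling to presynaptic genes 12 of the 39 were, beside 1004 of all genes. Col19a1 was 3.81-fold lower (2.60 to 5.65), at a log2 ratio of -0.80, and Col25a1 2.79-fold lower (1.81 to 4.28). The KCl comparisons of the genotypes share no library; the 3 genes past 2-fold in wild type were past it in the cKO, beside 380 of 672 over all genes.

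**Figure D3:**
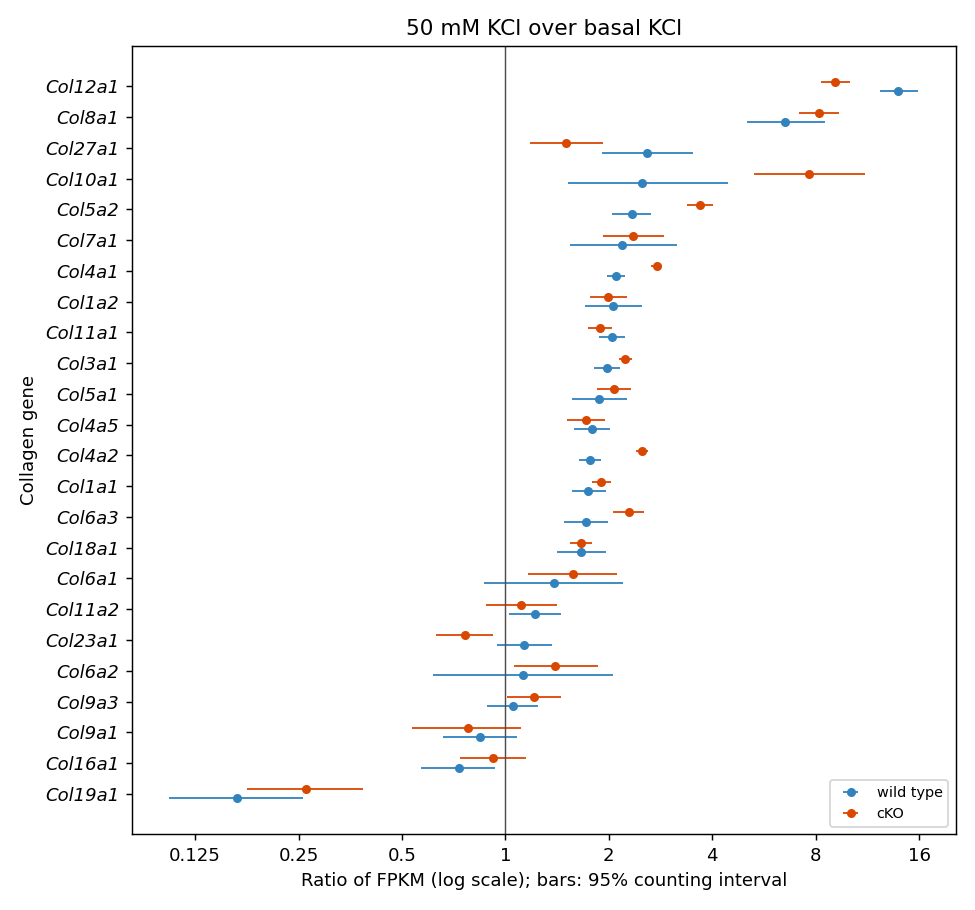
Ratio of KCl to basal FPKM for the same 24 genes, on a log axis, in wild type (blue) and cKO (orange), with 95% counting intervals as bars and genes ordered by the wild-type ratio. Col12a1 and Col8a1 are at the right in both genotypes, Col10a1 moves from 2.49 to 7.66, and Col19a1 is at the left in both.

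To compare the KCl responses, the log2 ratio in wild type was subtracted from that in the cKO. It was at least 1 for 1 of 39 genes, Col10a1 (1.23), and at most -1 for none, beside 0.551% and 0.643% of all genes. Among genes at 1 FPKM or more it was 1 of 24, beside 0.672%. Its median was 0.08 for the 39 and 0.19 for the 24, and 0.02 over all genes in either set. The next largest differences were those of Col8a1 (0.93), Col5a2 (0.73), Col4a2 (0.53), Col6a3 (0.44) and Col4a1 (0.43). On deposited values Col8a1 was 6.50-fold and 8.17-fold higher with KCl, a ratio between the genotypes of 1.26, since adding 1 FPKM shrinks the fold of the lower wild-type values more. Col18a1, with the largest genotype ratio at basal KCl, had nearly equal KCl ratios, 1.66-fold in both genotypes. The most negative differences were those of Col23a1 (-0.37), Col12a1 (-0.30) and Col27a1 (-0.26).

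Enzymes and carriers that make and process collagen were compared as a list of 31 genes, 29 of them at the minimum. At basal KCl 2 of 29 were at least 2-fold higher in the cKO (0.76% of all genes), and after KCl 4 were (1.52% of all genes), with none lower in either. The medians were 0.03 and 0.24. Pcolce, which speeds the trimming of procollagen ends, stood at 1.04, 2.07, 5.41 and 15.1 FPKM, the order of libraries seen for Col3a1. Lox, which cross-links collagen, stood at 0.874, 2.22, 2.76 and 8.02, and Loxl2 of the same family at 2.31, 5.25, 3.87 and 18.2. With KCl, 1 of 29 was higher in wild type, no more than the 4.12% of all genes, and 9 in the cKO, beside 3.58%, none being lower, with medians of 0.26 and 0.58. Plod2, a lysyl hydroxylase of collagen, stood at 7.74, 22.1, 6.11 and 21.1, and Serpinh1, the collagen chaperone HSP47, at 35.1, 65.7, 39.8 and 85.3. Most of these enzymes act on many collagens and are made by many cell types, and their summed level was 327, 460, 336 and 548 FPKM. In the difference in KCl response 2 of 29 were at least 1, beside 0.551% of all genes. These were Tll1 (1.07), a procollagen proteinase, and Loxl2 (1.06), and the median of the list was 0.21.

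Collagen receptors, 10 of 11 at the minimum, held none at least 2-fold higher in the cKO at basal KCl and 2 after KCl. Over all genes the shares were 0.76% and 1.52%. Itga1, the integrin chain that binds type IV collagen, stood at 0.492, 1.21, 1.33 and 4.29 FPKM and Itga11, which binds type I, at 0.226, 0.313, 1.04 and 1.89. Itgb1, the beta chain shared by these integrins, stood at 47.3, 112, 50.9 and 147. With KCl it was the 1 receptor of 10 past 2-fold in wild type, beside 4.12% of all genes. In the cKO both Itgb1 and Itga1 were past 2-fold, beside 3.58% of all genes. Gpr56, the type III receptor, stood at 58.8, 78.0, 62.8 and 74.6, so that the cKO value lay above wild type at basal KCl and below it after KCl. No receptor was at least 2-fold lower in any comparison, and the medians were 0.24 and 0.32 for genotype at basal KCl and after KCl, and 0.44 and 0.39 for KCl in wild type and cKO.

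Of 18 basement membrane partners of type IV collagen, 2 were at least 2-fold higher in the cKO at basal KCl and 5 after KCl. Over all genes the shares were 0.76% and 1.52%. No partner was lower in the cKO, and the medians were 0.26 and 0.44. Nid1, which links the laminin and type IV networks, stood at 3.25, 6.83, 13.6 and 29.4 FPKM, and Nid2 at 1.16, 1.01, 3.60 and 3.71. With KCl, 1 of 18 was higher in wild type, near the 4.12% of all genes, and 4 in the cKO, beside 3.58%, none being lower, with medians of 0.31 and 0.57, among them the laminin chain gene Lamc1 at 10.6, 25.4, 12.3 and 33.5. Agrn, a proteoglycan also made by neurons, stood at 60.7, 63.5, 60.5 and 64.0. Of 20 interstitial matrix partners 2 were higher in the cKO at basal KCl and 2 after KCl, beside 0.76% and 1.52% of all genes. The medians were 0.13 and 0.39. In both conditions the genes were Tgfbi, a collagen-binding protein, at 1.21, 3.11, 4.60 and 13.2, and Bgn. Bgn, the proteoglycan biglycan, stood at 11.7, 19.5, 26.5 and 71.9. With KCl 2 interstitial partners were higher in wild type and 5 in the cKO, beside 4.12% and 3.58% of all genes. The medians were 0.08 and 0.37, and none of these partners was lower in any of these 4 comparisons. Fn1, fibronectin, stood at 19.0, 40.2, 27.4 and 75.8.

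Markers of other cell types that the cultures could hold were read beside these results, and they did not move alike. Pericyte and smooth muscle markers were at least 2-fold higher in the cKO in 4 of 11 cases at basal KCl and 6 after KCl. None was lower, and with KCl 4 were higher in wild type and 7 in the cKO. Over all genes 0.76% and 1.52% were higher in the cKO, basal then KCl, and 4.12% and 3.58% with KCl, wild type then cKO. The same shares apply to the counts of higher markers that follow. The pericyte and smooth muscle markers summed to 23.2, 61.8, 59.0 and 223 FPKM, and none of the 11 was at 0. Acta2 and Tagln made up most of this sum in both KCl libraries, with Tagln at 3.48, 22.3, 8.34 and 71.6. The 4 markers past 2-fold with KCl in wild type were Tagln, Acta2, Cnn1 and Rgs5. Pdgfrb had a log2 ratio of 0.14 there and Notch3 of -0.23, and 10 of the 11 ratios lay above 0. Rgs5, a pericyte gene, stood at 2.62, 6.55, 13.6 and 31.0, and Acta2, smooth muscle actin, at 2.58, 15.7, 10.9 and 65.1. Notch3 of the same list hardly differed, at 7.61, 6.36, 6.81 and 7.51. At basal KCl 9 of 11 genotype log2 ratios lay above 0 and 2 below, those of Notch3 and Abcc9, and after KCl all 11 lay above 0. Fibroblast markers were higher in the cKO in 2 of 12 cases at basal KCl and 2 after KCl, but their sum hardly differed between genotypes, at 104, 115, 103 and 117, most of it from Thy1 and Pdgfra, which neurons and oligodendrocyte progenitors also express. Dcn, a fibroblast gene that is also among the interstitial partners, stood at 2.03, 1.69, 2.01 and 2.11. Aldh1a2 was at 0 in both wild-type libraries. Igf2 stood at 5.16, 7.43, 16.8 and 25.5 and Foxc1 at 0.488, 1.09, 2.76 and 2.86. Tbx18 stood at 0.506, 1.39, 1.97 and 4.44 and Ogn at 0.451, 1.35, 1.29 and 3.60. Of 12 fibroblast log2 ratios between genotypes 7 lay above 0 and 5 below at basal KCl, and 8 and 4 after KCl. Endothelial markers summed to 1.86, 4.72, 3.25 and 9.19, with none of 6 higher in the cKO at basal KCl and 1 after KCl, and Cldn5 and Tie1 were at 0 in all 4 libraries and Cdh5 at 0.0378 or less. Of 6 endothelial log2 ratios between genotypes 4 lay above 0 and 2 below at basal KCl, and 5 and 1 after KCl. Flt1 stood at 0.717, 1.76, 1.61 and 4.86, and Pecam1 at 0.332, 0.924, 0.216 and 0.703. Microglia markers were higher in 3 of 10 and 7 of 10 cases, with sums of 217, 254, 437 and 555. The part of any of these cells in the collagen differences was not tested.

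Markers of other cells moved differently. Oligodendrocyte lineage markers were at least 2-fold lower in the cKO in 4 of 10 cases in each condition. Their sums were 630, 735, 402 and 362 FPKM. Astrocyte markers were lower in 2 of 10 cases at basal KCl and 1 after KCl, with sums of 752, 906, 666 and 803. Over all genes 0.447% and 0.766% were lower. Of the astrocyte markers S100b differed most, at 8.34, 11.8, 1.34 and 2.29. Gfap stood at 168, 201, 145 and 200 and Aldoc at 161, 180, 171 and 189. Of 10 astrocyte log2 ratios 8 lay below 0 and 2 above at basal KCl, and 9 and 1 after KCl. Col9a1, Col9a2, Col9a3, Col11a2 and Col20a1 were lower in both cKO libraries than in both wild-type ones. So was the oligodendrocyte sum, whereas the astrocyte sum was lower in the cKO only within each KCl condition. Whether these values are connected was not tested. Neuron markers summed to 3032, 2204, 2860 and 2033 FPKM, and Tubb3, which stood at 1187, 278, 1175 and 284, was the one neuron marker at least 2-fold lower with KCl.

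**Figure D4:**
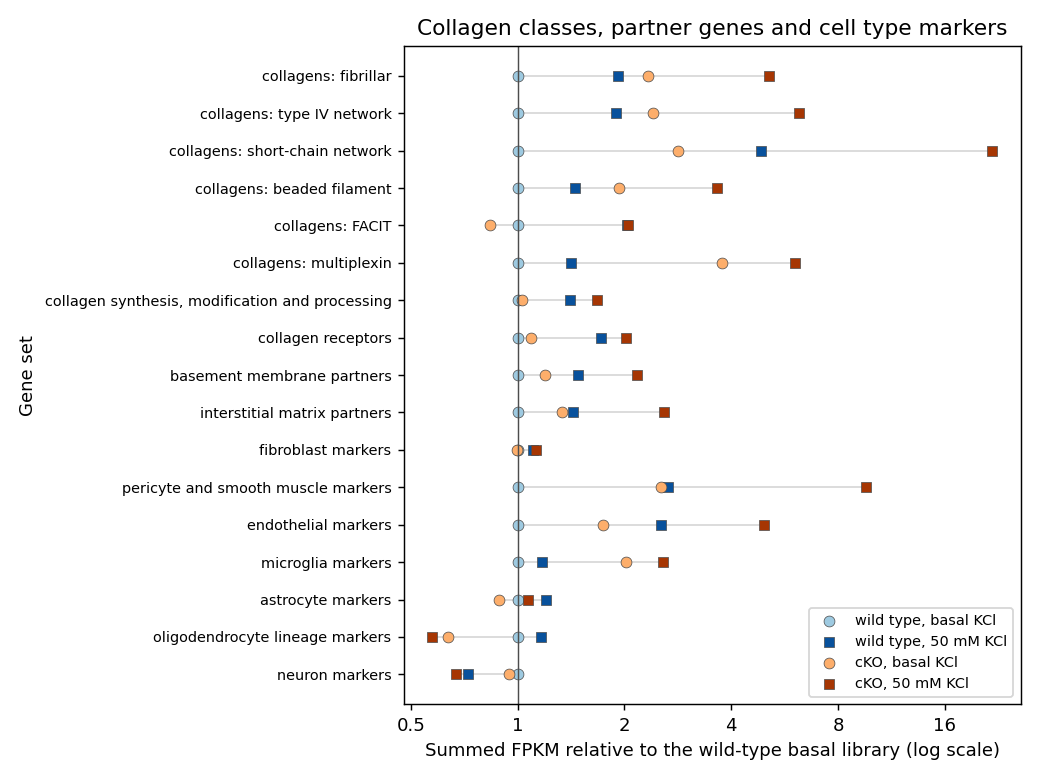
Summed FPKM of each gene set in each library, divided by that of the wild-type basal library, on a log axis, with symbols as in the plot of single genes; the anchoring fibril, transmembrane and unclassed collagens are not drawn. The type IV, fibrillar and multiplexin collagens reach 6.21, 5.10 and 6.07 times that level in cKO after KCl. The short-chain collagens reach 21.8 there, and pericyte and smooth muscle markers, whose sum there is mostly Acta2 and Tagln, 9.61. Fibroblast markers, whose sum is mostly Thy1 and Pdgfra, stay between 0.996 and 1.13.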

How the data were processed

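RNA had been sequenced from 4 cultures, 1 library per group, and assigned by the titles of the samples. TopHat 1.3.2 and the mm9 genome are named in the submitters' processing notes; the program behind the values, its annotation and any filters are not given there. The deposited values were taken as FPKM from the values themselves, since no label names the unit. Genes at 0.1 FPKM in at least 1 library were kept, and log2 ratios were taken after adding 1 to both values; a call is a ratio of 2-fold or more, and no p-value is given because 1 library per group leaves no residual degree of freedom. Depth was approximated from the most frequent value of a single fragment on genes with 1 protein-coding transcript over 2000 bases (GENCODE M21 lengths). The search range was set after a first search had settled on a 2-fragment peak in 1 library. The annotation build differs from mm9. Its coordinates were used to find exons that overlap promoter windows or collagen genes. Values of overlapping genes such as Nt5dc1 were then matched by symbol. Intervals were not given at 3 or fewer fragments.

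Given with 4 values were all collagen genes at 1 FPKM, with folds Col3a1 and those past 2-fold in a comparison, and from each list up to 4 genes with the largest log2 ratio. Outside that rule, and chosen after their values were seen, are the folds of other collagens, the collagens under 1 FPKM and the promoters shown. So are Nt5dc1, Gpr56, Agrn, Dcn, Aldh1a2, Cldn5, Tie1, Cdh5, Thy1, Notch3, Abcc9 and Aldoc. Alternatives were a pseudocount of 0.1, a filter at 1 FPKM, no filter and 4 rescalings. Members and lists were chosen with earlier results of these data known. Python 3.11.15, NumPy 2.4.6, pandas 2.3.3, SciPy 1.17.1 and matplotlib 3.10.9 were used. The procedure was tested on simulated data of 11521 genes, with 4-fold differences set in 100 genes in each direction. In every comparison 99 or 100 of each 100 were recovered, and no other gene was called. No difference near the 2-fold size of a call was set, so the test does not speak for such genes.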

Additional observations from a re-analysis of the deposited data

Results flagged for a closer look

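No collagen gene had opposite signs of at least 0.25 on the log2 scale between the KCl responses of the genotypes or between the genotype differences of the KCl conditions. Among the listed genes 2 did. P4ha2, a subunit of the collagen prolyl hydroxylase, had genotype log2 ratios of -0.26 at basal KCl and 0.50 after KCl, a change of 0.77. Aif1, a microglial gene, responded to KCl with a log2 ratio of -0.34 in wild type but 0.40 in cKO, which is 0.74 apart. Neither difference was tested.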

How the results depend on the processing

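No paired analysis was possible because each group had 1 library, and no replicate could be left out. With a pseudocount of 0.1, the collagen genes at least 2-fold higher numbered 8 with KCl in wild type, 11 with KCl in the cKO, 10 in the cKO at basal KCl and 15 in the cKO after KCl, and the lower ones 2, 2, 1 and 1. With rescaling to the ribosomal protein genes, 4 collagen genes were higher with KCl in the cKO, beside 293 of all genes (584 before). With rescaling to the presynaptic genes, 6 were higher and 0 lower with KCl in wild type, 12 were higher with KCl in the cKO, and 2 had a larger response in the cKO (Col8a1 at 1.09 joined Col10a1). Over all genes this rescaling gave 1002 higher and 242 lower with KCl in wild type, against 672 and 439 before. In the cKO 1004 of all genes were higher with KCl (584 before), and 107 had a larger response there (90 before). Filtering at 1 FPKM, no filter, the median ratio and the upper quartile kept every one of these counts within 1.5 times. The collagen median stayed above 0 in every comparison under all 7 alternatives, but rescaling also moves the median of all genes. With the presynaptic rescaling the genotype medians, basal then KCl, were 0.15 and 0.23 for the 39 collagens, beside 0.13 and 0.19 over all genes. With the ribosomal rescaling they were 0.16 and 0.07, beside 0 and -0.06. The ribosomal rescaling moved the median of all genes with KCl to -0.23 (wild type) and -0.30 (cKO), and the presynaptic one to 0.16 and 0.21. Of all genes past 2-fold with KCl, 60.5% in wild type and 58.8% in cKO were higher, against 24.4% and 18.0% with the ribosomal and 80.5% and 82.2% with the presynaptic rescaling; for genotype the shares were 62.9% without and 66.5% with KCl, against 75.5% and 81.8% (presynaptic) and 53.2% (ribosomal, with KCl). With a pseudocount of 0.1, all genes higher and lower numbered 1721 and 1054 with KCl in wild type (672 and 439 before), 1418 and 994 in cKO (584 and 410), 556 and 288 for genotype without KCl (124 and 73) and 746 and 517 with it (248 and 125), and 460 and 570 for the difference in response (90 and 105). Under the ribosomal rescaling the KCl medians of astrocyte markers became -0.19 (wild type) and -0.29 (cKO), of fibroblast markers -0.0032 (wild type), of microglia markers -0.20 (cKO) and of oligodendrocyte markers -0.18 (wild type), and with a pseudocount of 0.1 the fibroblast difference in response became -0.053. The cause was not tested. Genes under 1 FPKM rest on few fragments, and the spread from culture to culture is unknown here.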
